A study of Danio rerio with 32 samples.

Results

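The response to dietary protein was compared between zebrafish larvae that carry either of 2 mutations of pllp, the old mutation pd1116 and the new mutation pd1245. The comparison used 12 libraries of experiment 1, chosen by their labelled genotype and diet, of 18 in that experiment and 32 in the series. Each library held polyadenylated RNA of whole larvae at 20 days after fertilization. The 4 groups, with 3 libraries each, were pllp pd1116 on high protein (HP), pllp pd1116 on low protein (LP), pllp pd1245 on HP and pllp pd1245 on LP. Per the submitters' design text, pd1245 larvae have a survival defect when nutrition is restricted, and in the pd1116 line that defect has adapted. The labels do not give the molecular lesion of either mutation, the number of larvae pooled in a library, or how far the wild-type strain EK and the mutant lines share a background, so allele and line cannot be told apart. Experiment 1 also holds 6 EK libraries on the same diets, and experiment 2 a later pd1245 line that the design text calls adapted. Both are set beside the comparison where they help to read it.

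The pllp product, plasmolipin, spans the membrane and belongs with the MAL proteins; in gut epithelium it takes part in sorting to endosomes and to the apical surface. Enterocytes absorb food through a brush border of microvilli, each a bundle of actin held to the membrane by linker proteins and carrying peptidases and nutrient transporters. Fish larvae also have lysosome-rich enterocytes, which take up dietary protein whole and digest it inside the cell.

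Gene-level depth in the 12 libraries ran from 19838912 to 28469884 counts. Of 19 marker symbols of larval tissues, 14 matched genes that had passed the filter on low counts. The 18 genes they named were detected in all 12 libraries, which that filter made likely. Markers among the genes left out by the filter were not looked for. Levels are given as CPM, counts divided by the scaled library size in edgeR's usual unit, which compare samples for a gene but not genes with each other. Replicate 3 of pd1245 on LP stood apart: 14.4% of its counts came from cytosolic ribosomal protein genes, against at most 9.04% in the other 17 libraries of experiment 1. Its scaling factor was 0.832, against 0.971 to 1.06 in the others. In whole larvae, fewer cells of a type and less RNA per cell cannot be told apart.

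The mutated gene gave the first check. In pd1116, pllp stood at 6.46, 6.95 and 7.03 CPM on HP and at 6.49, 8.03 and 6.88 CPM on LP. In pd1245 it stood at 9.24, 9.22 and 10.2 CPM on HP and at 7.02, 6.10 and 3.39 CPM on LP. The pd1116 diets overlapped, and in pd1245 every LP library lay below every HP library, with replicate 3 lowest. The diet response of pllp was 0.84 higher in pd1116 on the log2 scale (SE 0.25), which did not pass the test (edgeR quasi-likelihood test, adjusted p = 0.129). It passed in 2 of 21 alternative analyses. EK held 11.3 to 12.5 CPM of pllp on HP and 12.8 to 17.1 CPM on LP, above every mutant library.

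The interaction asked, for each gene, whether the LP over HP change differed between the mutations. It is the log2 change in pd1116 minus the log2 change in pd1245, and a gene was called at an adjusted p under 0.05. Of 22742 genes tested, 140 were called (0.616%), 110 with a higher response in pd1116 (0.484%) and 30 with a lower one (0.132%). At an unadjusted p under 0.05 there were 3595 genes, and 70 of the 140 differed by 2-fold or more. Just inside the threshold lay tmem79a and zgc:172323 (adjusted p = 0.04998 for each), and just outside lay ace and pcyt1bb (0.0508 for each).

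More genes were called in each part of the contrast than in the interaction. Diet changed 1545 genes in pd1116 (6.79%), 627 higher and 918 lower on LP, and 4346 genes in pd1245 (19.1%), 2122 higher and 2224 lower. Between the mutations, 4590 genes differed on LP (20.2%) and 2699 on HP (11.9%). Both orders turned without replicate 3 of pd1245 on LP. In that fit diet changed 3506 genes in pd1116 and 2680 in pd1245, and the mutations differed in 2949 genes on LP and 4557 on HP. Other libraries turned an order too. Without replicate 3 of pd1245 on HP, diet changed 1658 genes in pd1116 and 1278 in pd1245. Without replicate 2 of pd1116 on LP, the mutations differed in 2288 genes on LP and 2613 on HP. Which line responded more widely, and on which diet the mutations differed more, therefore depended on single libraries.

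The call list was sensitive to single libraries. Without replicate 1, 2 or 3 of pd1116 on HP, 20, 49 and 29 genes were called, and without replicate 1, 2 or 3 of pd1116 on LP, 28, 51 and 47. Leaving out replicate 1 or 3 of pd1245 on HP gave 62 and 24, and leaving out replicate 1 of pd1245 on LP gave 488. A fit of only the 4 groups, without EK, called 18 genes. Without replicate 3 of pd1245 on LP, the library that stood apart, 191 genes were called, 163 higher and 28 lower, and 122 of the 140 were among them. In all 12 fits that left out 1 library, 14 genes kept the call, 11 higher and 3 lower. Of the 36 called genes that the naming rule gives, 12 kept the call in the fit of only the 4 groups, and 9 to 35 in the fits without 1 library. The fewest were kept on leaving out replicate 3 of pd1245 on HP (9) or replicate 1 of pd1116 on HP (11).

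**Figure D1:**
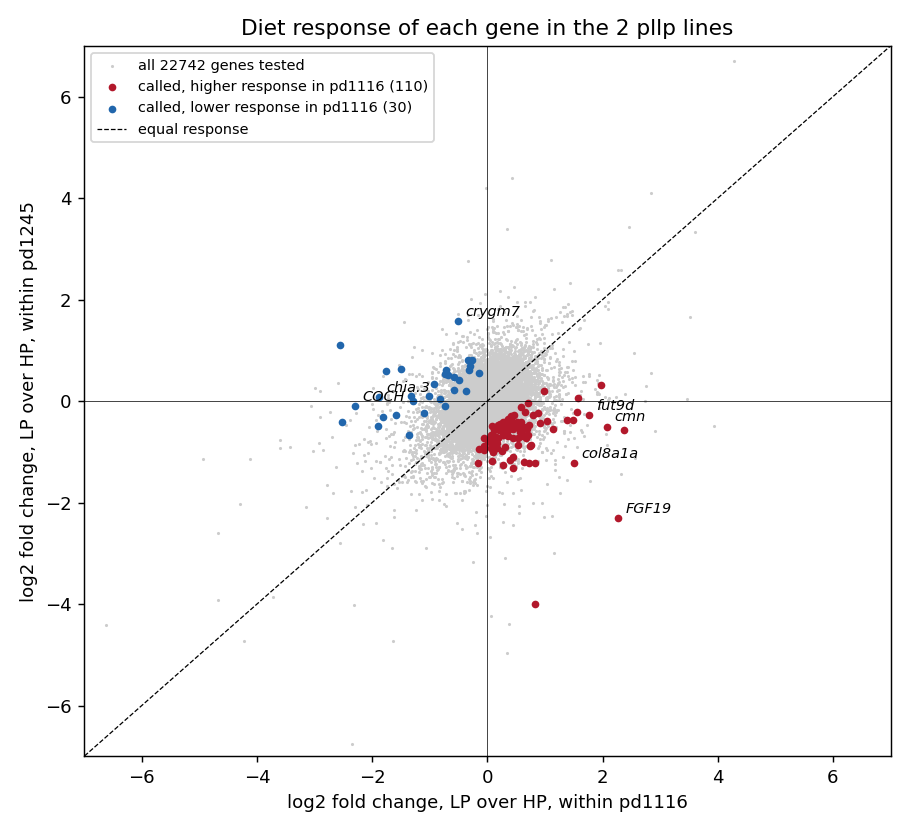
Log2 fold change of LP over HP within pd1116 (horizontal) and within pd1245 (vertical) for all 22742 genes tested; red points are the 110 genes called with a higher response in pd1116, blue points the 30 called with a lower one, and the dashed line marks equal responses. Red points lie mostly to the right of 0 on the horizontal axis and below 0 on the vertical axis. Blue points lie mostly to the left of 0.

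The 110 genes with a higher response mostly combined a rise in pd1116 with a fall in pd1245. Their median log2 diet change was 0.39 in pd1116 and -0.55 in pd1245, against 0.01 in each line over all genes. Taken alone, the pd1116 change passed the test in 43, all of them higher, and the pd1245 change in 91, all of them lower. The 30 genes with a lower response had medians of -0.87 in pd1116 and 0.27 in pd1245. Of these, 24 fell in pd1116, 9 rose in pd1245 and 1 fell in pd1245. Both responses are parts of the contrast that chose these genes, so the counts describe them and test nothing further.

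A group was said to make the interaction of a gene where its mean log2 CPM stood farther from the nearest of the other 3 means than the whole range of those 3. Where no group did so, the gene was called crossed if both diet responses passed the test in opposite directions, and mixed otherwise. By this rule pd1245 on LP made 22 of the 110 higher genes (20%), pd1245 on HP made 16 (14.5%) and pd1116 on HP made 13 (11.8%). pd1116 on LP made 0 of them, while 23 were crossed (20.9%) and 36 mixed (32.7%). Of the 30 lower genes, pd1116 on HP made 13 (43.3%), pd1245 on LP made 4 (13.3%) and pd1116 on LP made 2 (6.67%). pd1245 on HP made 0 of the lower genes, with 3 crossed (10%) and 8 mixed (26.7%). Over all genes tested the shares were 13.5% for pd1116 on HP, 6.48% for pd1116 on LP, 6.93% for pd1245 on HP and 27.9% for pd1245 on LP. Over all genes, 0.114% were crossed and 45.1% mixed. The 26 crossed genes of all 22742 were the 26 among the 140 called. Crossed genes need 2 passing responses in opposite directions, which favours a call, so this share has no weight as a comparison. Thus pd1116 on LP, the group in which the adapted mutation met the restricted diet, made 0 of the higher genes. Its share of the lower genes was near its share of all genes.

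**Figure D2:**
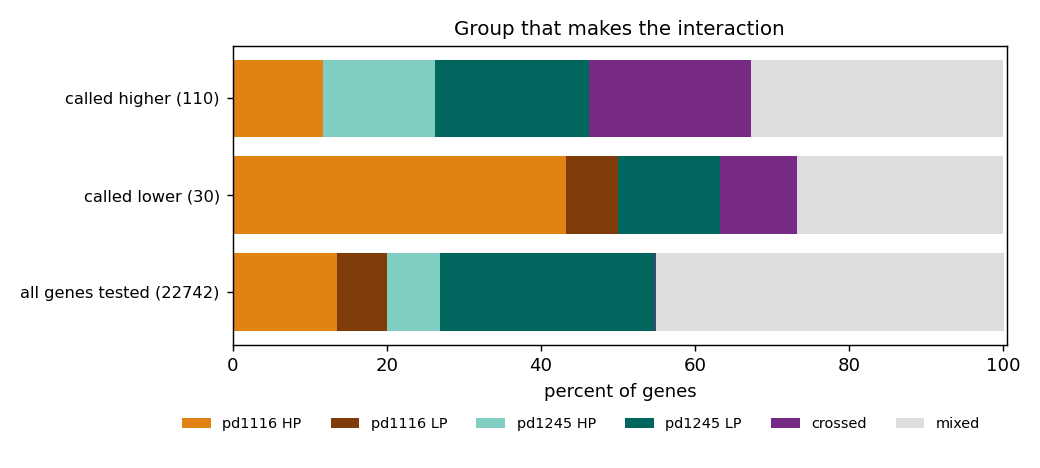
Share of genes (percent) whose interaction is made by each of the 4 groups, is crossed or is mixed, for the 110 higher genes, the 30 lower genes and all 22742 genes tested. The pd1116 on HP segment covers 43.3% of the lower genes and 11.8% of the higher ones, and no bar segment for pd1116 on LP exceeds 6.67%.

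EK took no part in the contrast, and its own diet response was read beside it as a description, chosen after the data were seen. The EK response was above 0 in 105 of the 110 higher genes (95.5%), against 48.8% of all genes, and in 3 of the 30 lower ones. It was nearer to that of pd1116 than to that of pd1245 in 98 of the 110 (89.1%) and in 19 of the 30 (63.3%), against 61.5% of all genes. When each group was set against EK on the same diet, pd1245 on LP contributed most to the interaction in 62 of the 110, pd1245 on HP in 29, pd1116 on HP in 16 and pd1116 on LP in 3. Over all genes tested these shares were 45.1%, 19.4%, 14.8% and 20.7%. Among the 30 lower genes pd1245 on HP contributed most in 14 (46.7%) and pd1116 on HP in 3 (10%). There pd1116 on LP led in 7 and pd1245 on LP in 6. The rule above, which leaves EK out, gave pd1116 on HP 13 of the 30 and pd1245 on HP 0. In the EK libraries of experiment 2 the diet response was above 0 in 61.2% of the 98 higher genes measured there, against 50% of all genes.

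Among genes of the absorptive cell surface, dpp4, a brush border peptidase that releases dipeptides, stood at 28.4, 24.1 and 29.4 CPM in pd1116 on HP and at 52.0, 47.1 and 51.5 CPM on LP. The pd1245 libraries held 49.5, 56.2 and 63.8 CPM on HP and 49.8, 54.3 and 39.1 CPM on LP. pd1116 on HP lay below all other libraries and made the interaction (1.12, SE 0.17, adjusted p = 0.00937). SLC6A19 (ENSDARG00000091560), a transporter of neutral amino acids in the brush border, followed the same pattern. It held 89.8 to 103 CPM in pd1116 on HP, 170.5 to 209 CPM in pd1116 on LP, 168 to 180 CPM in pd1245 on HP and 172 to 225 CPM in pd1245 on LP. pd1116 on HP alone was low, and its interaction was 0.79 (SE 0.15, adjusted p = 0.0264).

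Crossed responses were seen in SLC7A7, which exports cationic amino acids from enterocytes to the blood. Its CPM rose from 27.4, 24.9 and 23.2 on HP to 37.5, 33.9 and 31.9 on LP in pd1116. In pd1245 it fell from 39.3, 44.7 and 44.7 on HP to 30.2, 32.0 and 25.98 on LP. The diets did not overlap in either line, no single group made the interaction, and it was 1.00 (SE 0.15, adjusted p = 0.00777). aqp10b, a channel for water and glycerol, was mixed, with 2.74 to 3.10 CPM in pd1116 on HP, 4.01 to 4.50 CPM in pd1116 on LP, 5.30 to 6.15 CPM in pd1245 on HP and 2.32 to 3.36 CPM in pd1245 on LP. Only its pd1245 fall passed the test (-0.88, adjusted p = 0.00251, against 0.53, adjusted p = 0.0617, in pd1116), with an interaction of 1.4 (SE 0.23, adjusted p = 0.0150).

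fut9d, a fucosyltransferase that adds fucose to surface glycans, had the largest log2 difference of the named genes that kept the call in every fit without 1 library. It stood at 8.16, 6.12 and 5.02 CPM in pd1116 on HP and at 23.1, 18.6 and 23.2 CPM on LP. Libraries of pd1245 gave 40.4, 52.7 and 45.5 CPM on HP and 45.1, 42.0 and 27.3 CPM on LP. pd1116 on HP made the interaction (2.03, SE 0.27, adjusted p = 0.00767), and EK too rose from 9.67 to 13.8 CPM on HP to 27.2 to 35.0 CPM on LP. Set against EK on the same diet, however, pd1245 on HP contributed most to the fut9d value (1.92), ahead of pd1116 on HP (0.93). ogal was crossed: 8.55 to 9.49 CPM rose to 12.8 to 13.8 CPM in pd1116, and 14.4 to 19.01 CPM fell to 9.04 to 12.3 CPM in pd1245 (1.17, SE 0.17, adjusted p = 0.00777).

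VIL1, the actin-bundling villin of microvilli, was mixed. It held 447, 484 and 356 CPM in pd1116 on HP and 540, 571 and 529 CPM on LP. In pd1245 it held 539, 525 and 612 CPM on HP and 430, 369 and 318 CPM on LP. All LP libraries lay above HP in pd1116 and below HP in pd1245, and only the fall in pd1245 passed the test (-0.59, adjusted p = 0.00586). Its interaction was 0.93 (SE 0.18, adjusted p = 0.0268).

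A list of 22 measured brush border genes held 2 called members, SLC6A19 and VIL1 (9.09%, against 0.616% of all genes tested). Each of these 2 calls held in 6 of the 12 fits without 1 library. The interaction was above 0 in 18 of the 22, against 11087 of all 22742 genes tested. Its median was 0.45 in the list, against -0.01 over all genes tested. These values over all genes are the measure for the lists below too. The median diet change of the brush border list was 0.11 in pd1116 and -0.25 in pd1245. The summed level of the list was 2126 to 2281 CPM in pd1116 on HP, 2558 to 2636 on LP, 2580 to 3132 in pd1245 on HP and 1934 to 2482 on LP. Thus pd1116 on HP and pd1245 on LP were the low groups, and without replicate 3 of pd1245 on LP the median was 0.37.

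The scaffold of the microvillus was examined as well. This group was written down after the values were seen, so its counts have no weight as a test. Of 19 measured scaffold and tip-link genes, 7 were called, all higher, and the interaction was above 0 in 18. Over all genes tested, 0.616% were called and 11087 of 22742 were above 0. NHERF4 (ENSDARG00000055656), a PDZ scaffold beneath the apical membrane, was crossed. It stood at 10.2, 9.96 and 9.56 CPM in pd1116 on HP and at 18.7, 15.0 and 15.8 CPM on LP. In pd1245 it stood at 14.7, 14.0 and 17.4 CPM on HP and at 10.05, 9.26 and 5.42 CPM on LP. The diets separated in opposite directions in the 2 lines, and the interaction was 1.62 (SE 0.23, adjusted p = 0.00767).

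NHERF1 (ENSDARG00000000068), which ties transporters to ezrin, was crossed too, with 35.6 to 43.7 CPM on HP and 49.2 to 62.1 CPM on LP in pd1116. In pd1245 its 59.25 to 71.9 CPM on HP fell to 44.9 to 50.9 CPM on LP (interaction 0.93, SE 0.15, adjusted p = 0.0101). eps8l3b, of a family that caps and bundles actin, was also crossed (0.89, SE 0.15, adjusted p = 0.0190). EZR (ENSDARG00000020944), the ezrin that links actin to membrane, was mixed (0.71), as were ANKS4B (0.79) and MYO7B (0.78), both of the complex at the tips of microvilli in mammals. The calls of EZR (ENSDARG00000020944), ANKS4B and MYO7B held in 4, 5 and 3 of the 12 fits without 1 library. Members outside the call included USH1C of the same complex (0.55, adjusted p = 0.0917), PLS1, an actin bundler (0.67, adjusted p = 0.0662), and pdzk1, a further scaffold (0.09, adjusted p = 0.766). Other genes with the same symbols were outside it too. These were EZR (ENSDARG00000025091) at 0.15 (adjusted p = 0.620), NHERF1 (ENSDARG00000102503) at 0.43 (adjusted p = 0.340) and NHERF4 (ENSDARG00000040568) at 0.33 (adjusted p = 0.490).

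**Figure D3:**
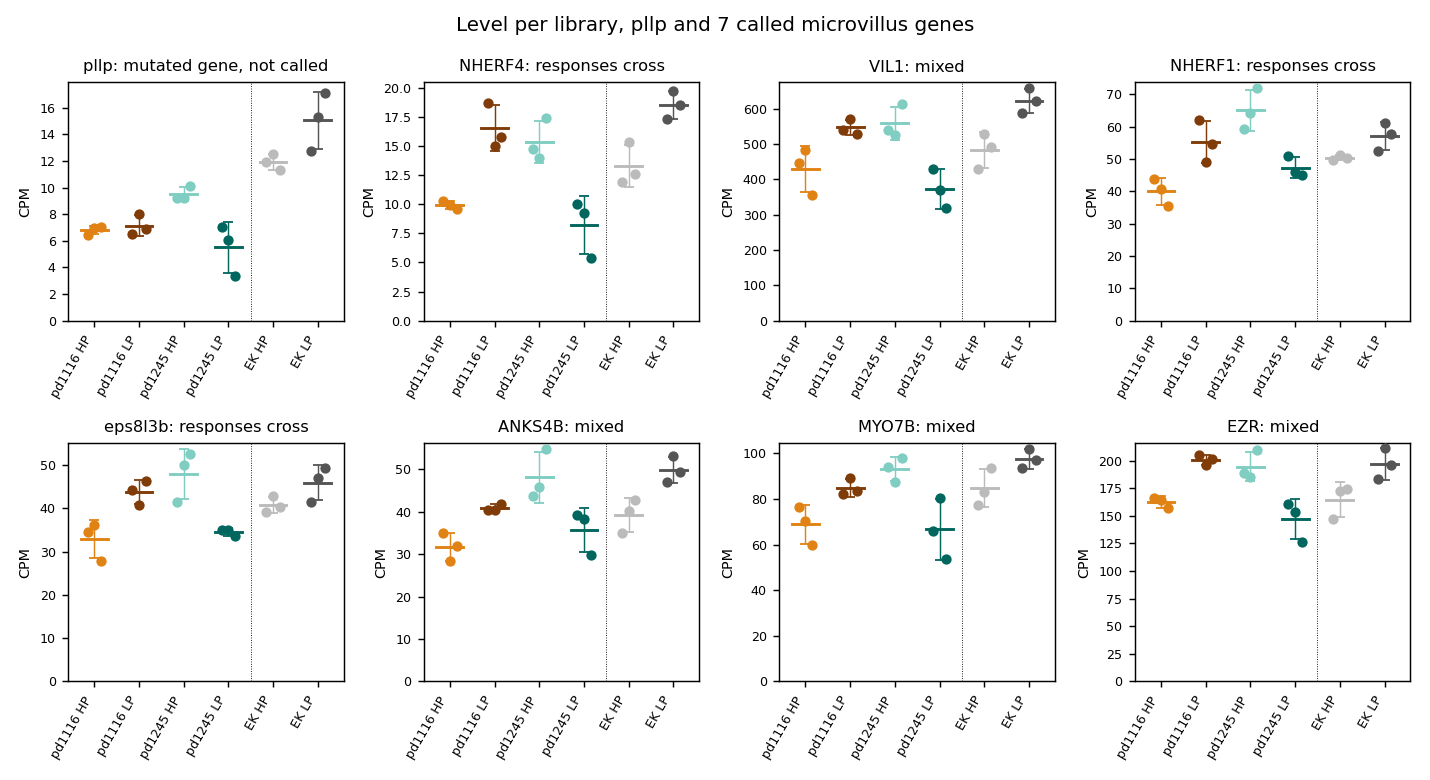
CPM per library (points), group mean (bar) and SD (whiskers, n = 3) of pllp and the 7 called microvillus genes in the 4 groups compared and, right of the dotted line, in EK. In VIL1, NHERF1 and NHERF4 the LP libraries lie above HP in pd1116 and below HP in pd1245.

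pd1245 on LP made the interaction of SLC40A1 and NQO1. SLC40A1, the iron exporter ferroportin, stood at 61.3, 60.2 and 51.0 CPM in pd1116 on HP and at 66.6, 63.0 and 54.9 CPM on LP. The pd1245 libraries held 74.8, 68.2 and 82.1 CPM on HP and 38.2, 46.4 and 29.4 CPM on LP. Only pd1245 on LP lay apart, below all others (1.08, SE 0.22, adjusted p = 0.0381). It was the only called member of 18 measured iron genes (5.56%, against 0.616% of all genes tested). Their median was 0.51, or 0.36 without replicate 3 of pd1245 on LP. The call of SLC40A1 held in 4 of the 12 fits without 1 library.

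The antioxidant enzyme NQO1, a quinone reductase, held 29.2 to 30.3 CPM in pd1116 on HP, 29.7 to 38.0 on LP, 33.9 to 39.2 in pd1245 on HP and 21.2 to 28.3 on LP (0.77, SE 0.16, adjusted p = 0.0333). mgst3b, a microsomal glutathione transferase, was mixed (0.89, SE 0.18, adjusted p = 0.0358), with a fall in pd1245 (-0.76, adjusted p = 0.00164) and a change of 0.13 in pd1116. These were the 2 called of 49 measured genes of glutathione and antioxidant defence (4.08%, against 0.616% of all genes tested), with a median of 0.20. The calls of NQO1 and mgst3b each held in 4 of the 12 fits without 1 library. Higher calls in the list ran from 0 to 7 over the alternatives.

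FGF19 encodes a hormone that the mammalian ileum releases in response to bile acids. It was near the detection limit, at 0.298, 0.190 and 0.386 CPM in pd1116 on HP and 1.02, 2.23 and 1.12 CPM on LP. In pd1245 it was at 0.726, 0.709 and 1.24 CPM on HP and at 0, 0.232 and 0.339 CPM on LP. The diets did not overlap in either line and the responses crossed, with an interaction of 4.58 (SE 0.81, adjusted p = 0.0220), a fold that at such low levels is imprecise. The EK libraries moved as pd1116 did, from 0.123 to 0.353 CPM on HP to 0.649 to 1.79 CPM on LP. That EK change did not pass the test (2.35, edgeR quasi-likelihood test, adjusted p = 0.133). In the EK libraries of experiment 2 the FGF19 change was -0.63. FGF19 was the only called gene among 20 measured genes of bile acid synthesis and transport (5.00%), whose median was 0.47.

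DDC, which decarboxylates aromatic amino acids to serotonin and dopamine, was crossed (0.81, SE 0.15, adjusted p = 0.0253). Its 34.6 to 40.9 CPM rose to 47.5 to 49.9 CPM in pd1116, and its 51.8 to 63.8 CPM fell to 35.1 to 46.9 CPM in pd1245. In the opposite direction, GPT (ENSDARG00000055642), the alanine aminotransferase that moves amino groups between alanine and glutamate, stood at 17.2, 19.7 and 20.9 CPM in pd1116 on HP and at 15.5, 16.9 and 13.8 CPM on LP. Values in pd1245 were 14.2, 17.1 and 13.3 CPM on HP and 22.6, 24.4 and 31.1 CPM on LP. pd1245 on LP lay above all other libraries of the 4 groups and made the interaction (-1.13, SE 0.18, adjusted p = 0.0126), which held in all 12 fits without 1 library. DDC and GPT were the 2 called of 60 measured genes of amino acid breakdown (3.33%), whose median was 0.04.

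FOXO1 (ENSDARG00000099555), a transcription factor active when insulin signalling is low, was also made by pd1245 on LP. It held 82.7 to 91.1 CPM in pd1116 on HP, 76.4 to 81.2 on LP, 76.7 to 79.3 in pd1245 on HP and 105 to 121 on LP (-0.71, SE 0.14, adjusted p = 0.0333). The call of FOXO1 held in 3 of the 12 fits without 1 library. It was the only called gene of 31 measured genes of fasting and muscle wasting (3.23%), whose median was -0.20. In that list 13 genes rose on LP in pd1245, or 7 without replicate 3 of pd1245 on LP, and 4 rose in pd1116. Over all 22742 genes tested, 2122 rose in pd1245, or 1169 without that library, and 627 rose in pd1116.

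chia.3, an acidic chitinase that digests chitin, was made by pd1116 on LP. It stood at 69.2, 63.2 and 91.8 CPM in pd1116 on HP and at 21.4, 23.3 and 16.7 CPM on LP. Libraries of pd1245 gave 47.5, 40.1 and 73.1 CPM on HP and 47.0, 53.4 and 70.14 CPM on LP. The pd1116 LP libraries lay below all others, the pd1245 diets overlapped, and the interaction was -1.96 (SE 0.28, adjusted p = 0.00767). c6ast3, a protease of the astacin family, was high in pd1116 on HP alone, at 71.9 to 83.5 CPM against 28.0 to 54.2 CPM in the other 9 libraries (-1.29, SE 0.24, adjusted p = 0.0247).

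zhx3a, a zinc finger and homeobox factor, was crossed. It fell from 21.8, 23.4 and 27.1 CPM on HP to 13.6, 16.8 and 17.9 CPM on LP in pd1116. In pd1245 it rose from 15.6, 16.2 and 15.6 CPM to 20.7, 20.6 and 25.1 CPM. The diets did not overlap in either line (-1.07, SE 0.18, adjusted p = 0.0150). DIO2, the deiodinase that activates thyroxine, was mixed, with 3.76 to 4.74 CPM in pd1116 on HP, 1.88 to 2.72 on LP, 2.56 to 3.01 in pd1245 on HP and 3.09 to 4.40 on LP (-1.26, SE 0.25, adjusted p = 0.0297).

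**Figure D4:**
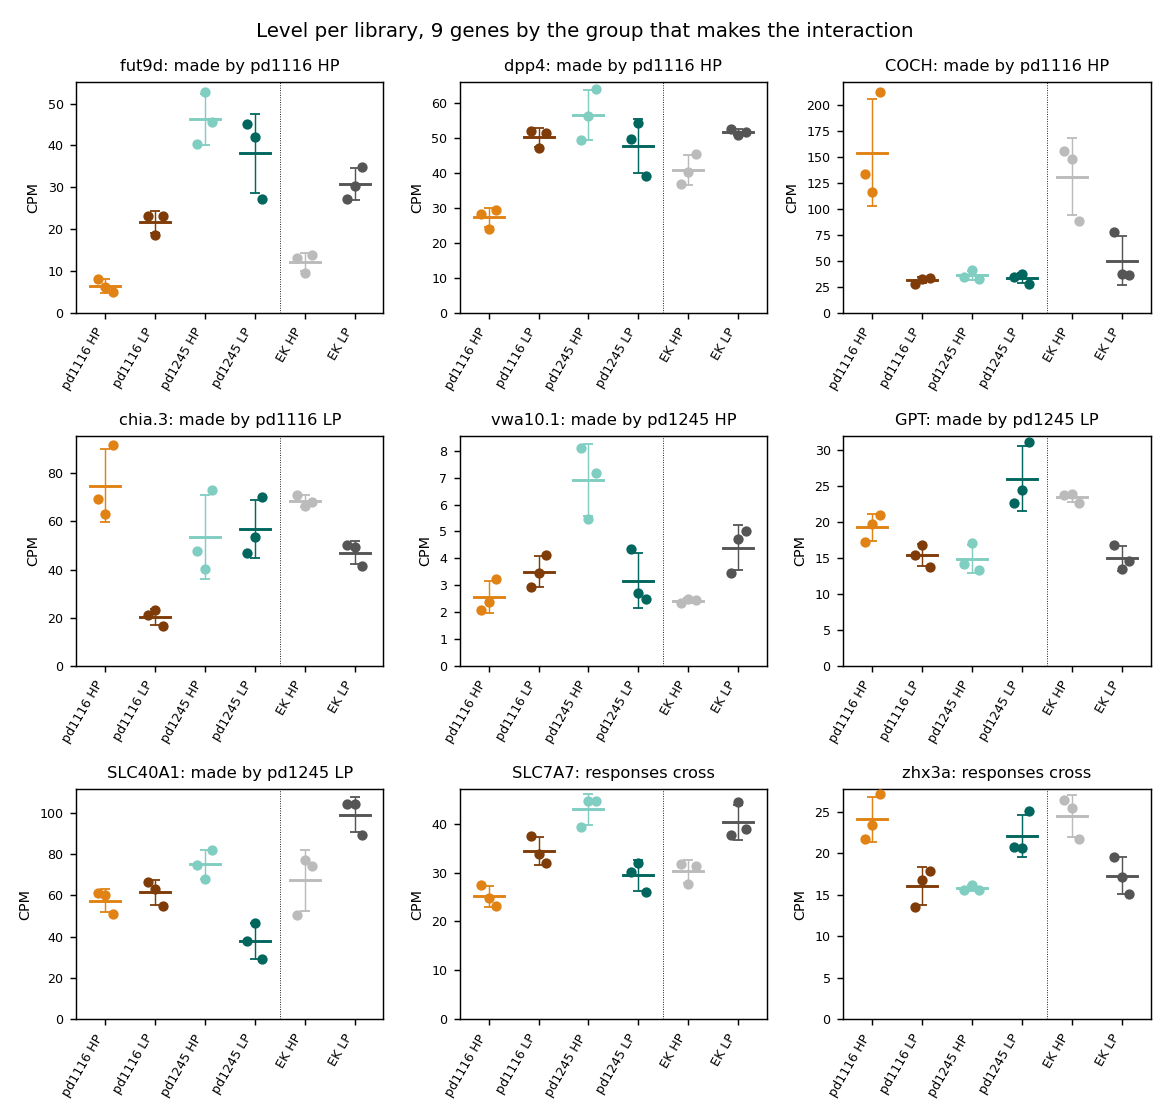
CPM per library (points), group mean (bar) and SD (whiskers, n = 3) of 9 called genes in the 4 groups compared and, right of the dotted line, in EK. Among the 4 groups compared, pd1116 on HP stands apart in fut9d, dpp4 and COCH, and pd1116 on LP in chia.3. pd1245 on HP stands apart in vwa10.1 and pd1245 on LP in GPT and SLC40A1. SLC7A7 and zhx3a cross.

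Within the 4 groups, the named lower genes of muscle, myelin and ear were made by pd1116 on HP, where they were high. EK on HP held means of 131 CPM of COCH, 55.6 of plp1b, 12.6 of TNNI2 and 26.1 of mb. The means in pd1245 on HP were 36.2, 30.9, 3.42 and 14.8 CPM. Set against EK on the same diet, pd1245 on HP contributed most to the interaction of each. COCH, the matrix protein cochlin of the inner ear, stood at 134, 116 and 213 CPM in pd1116 on HP and at 28.2, 32.8 and 33.4 CPM on LP. In pd1245 it stood at 34.6, 41.0 and 32.9 CPM on HP and at 35.0, 37.8 and 28.3 CPM on LP. The other 3 groups overlapped, and the interaction was -2.20 (SE 0.38, adjusted p = 0.0192). EK fell as well (-1.38, adjusted p = 0.0444), so pd1245 was the line without a response that passed the test.

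The same was true of plp1b, a proteolipid of myelin, at 69.5 to 74.4 CPM in pd1116 on HP, 32.5 to 35.6 on LP, 30.3 to 31.8 in pd1245 on HP and 22.9 to 29.6 on LP (-0.87, SE 0.16, adjusted p = 0.0268). It was the only called gene of 15 measured myelin genes (6.67%), whose median was -0.29, with 13 of 15 at or below 0. TNNI2 (ENSDARG00000013752), a fast muscle troponin, held 9.08 to 12.6 CPM in pd1116 on HP and 2.2 to 4.06 CPM in the other 9 libraries (-1.32, SE 0.28, adjusted p = 0.0387). It was the only called gene of 47 measured fast muscle genes (2.13%), whose median of -0.19 was -0.01 without replicate 3 of pd1245 on LP. TNNI2 itself lost the call without that library, and it kept it in 3 of the 12 fits. mb, the oxygen-binding myoglobin, held 27.7 to 36.6 CPM in pd1116 on HP and 13.0 to 17.6 CPM in the other 9 libraries (-1.13, SE 0.20, adjusted p = 0.0220).

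Lens crystallins gave 5 called genes of 53 measured, all lower (9.43%, against 0.132% of all genes tested). All 5 were of the M group of gamma crystallins, a multigene family in which reads may be shared between copies. The groups that made them differed. crygm1 was made by pd1116 on HP (18.8 to 24.7 CPM against 1.93 to 7.23 CPM in the other 9 libraries; -1.51), crygm2f by pd1116 on LP (1.93 to 2.23 CPM against 4.32 to 12.3 CPM in the other 9; -2.35). EK on HP held 12.1 to 18.5 CPM of crygm1. Against EK on the same diet, pd1245 on HP contributed most to the crygm1 value. crygm7 was made by pd1245 on LP (7.63 to 10.3 CPM against 1.98 to 5.52 CPM in the other 9; -2.08), crygm2c was mixed (-1.27), and crygm5, named after its value was seen, was made by pd1245 on LP (-1.06). The list as a whole had a median of -0.20, which was 0.05 without replicate 3 of pd1245 on LP. That library also held the highest summed crystallin level, 14662 CPM, against at most 11189 CPM in the other 11. In the same fit 3 crystallins were called, crygm2f, crygm7 and crygm2c, so crygm1 and crygm5 were not among them. The calls of crygm1, crygm2f, crygm7 and crygm2c held in 1, 5, 6 and 5 of the 12 fits without 1 library.

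The list of 73 measured collagen and matrix genes had 0 called by edgeR (15 at an unadjusted p under 0.05, and 3 by DESeq2). Its median was 0.17, and -0.03 without replicate 3 of pd1245 on LP. The summed level of the list was 4444 CPM in that library, against 8791 and 9024 CPM in the others of its group; the part of this in the genes named next was not tested. Of the called genes outside that list, cmn, the notochord sheath protein calymmin of zebrafish, stood at 18.02, 29.7 and 15.1 CPM in pd1116 on HP and at 121, 83.8 and 61.0 CPM on LP. The pd1245 libraries held 81.6, 59.4 and 62.3 CPM on HP and 62.4, 64.3 and 15.6 CPM on LP. The pd1116 diets separated and the pd1245 diets overlapped, with replicate 3 on LP far below the other libraries of its group. The gene was mixed (2.58, SE 0.51, adjusted p = 0.0281). col8a1a, a short-chain collagen, was crossed, with 11.3 to 21.4 CPM rising to 31.3 to 58.3 CPM in pd1116 and 37.3 to 47.9 CPM falling to 5.25 to 23.3 CPM in pd1245 (2.74, SE 0.50, adjusted p = 0.0247). and3, an actinodin of fin fold fibres in zebrafish, was crossed (1.17, SE 0.18, adjusted p = 0.00979), at 38.0 to 48.1 CPM on HP and 59.8 to 72.9 CPM on LP in pd1116. In pd1245 and3 fell from 45.8 to 60.1 CPM on HP to 32.2 to 40.6 CPM on LP.

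Interferon genes leaned to a higher response in pd1116 with 1 call. The interaction was above 0 in 35 of 39 measured genes, against 11087 of all 22742 tested, with a median of 0.69, and 0.58 without replicate 3 of pd1245 on LP. The call made 2.56% of the list, against 0.616% of all genes tested, and held in 4 of the 12 fits without 1 library. The called gene was parp14rs1, a relative of an interferon-induced ADP-ribosyl transferase, made by pd1245 on LP at 5.08 to 7.64 CPM against 11.4 to 16.2 CPM in the other 9 libraries (0.90, SE 0.20, adjusted p = 0.0419). The summed list ran from 255 to 508 CPM in pd1116 on LP, a wider spread than the 219 to 230 CPM of pd1245 on LP. mxa, an interferon-induced antiviral GTPase, had a value of 3.36 with a standard error of 1.25 and did not pass (adjusted p = 0.214).

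Other lists had 0 members called and a median away from that of all genes. All 83 cytosolic ribosomal protein genes had an interaction below 0, with a median of -0.61, and this was made on the pd1245 side: 53 of the 83 rose on LP in pd1245 and 0 in pd1116. By edgeR 61 of the 83 had an unadjusted p under 0.05 for the interaction, and DESeq2 called 0. Without replicate 3 of pd1245 on LP, the library rich in these transcripts, the median was -0.19 and 7 of the 83 rose in pd1245. Among 98 measured cell cycle genes 87 were above 0 (median 0.43, and 0.27 without that library), with 31 falls on LP in pd1245, or 9 without that library, and 1 in pd1116. Among 28 cholesterol synthesis genes 24 were above 0 (median 0.50, and 0.53 without that library), with 15 falls in pd1245, or 14 without that library, and 0 in pd1116. Over all genes tested the interaction was above 0 in 11087 of 22742. Of all genes, 2224 fell on LP in pd1245, or 1508 without that library, and 918 fell in pd1116. Rises numbered 2122 in pd1245, or 1169 without that library, and 627 in pd1116. At an unadjusted p under 0.05 were 24 cell cycle and 11 cholesterol genes, and DESeq2 called 1 and 0. The summed cholesterol list held 1088, 794 and 1565 CPM in pd1245 on HP and 821, 771 and 802 CPM on LP. Replicate 2 on HP thus lay inside the LP range, and replicate 3 on HP was the highest. The list medians were not computed without that HP library.

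Among 20 pancreatic digestive enzymes 2 were above 0 (median -0.52, and -0.33 without replicate 3 of pd1245 on LP); 10 had an unadjusted p under 0.05 in edgeR and DESeq2 called 0. The lysosome-rich enterocyte list of 27 genes had 0 called (3 at an unadjusted p under 0.05, and 1 by DESeq2) and a median of 0.12, with 18 falls on LP in pd1245, or 15 without that library, and 10 in pd1116. In all, 27 of the 37 lists had 0 called members, and the medians of 7 lists changed sign without replicate 3 of pd1245 on LP.

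**Figure D5:**
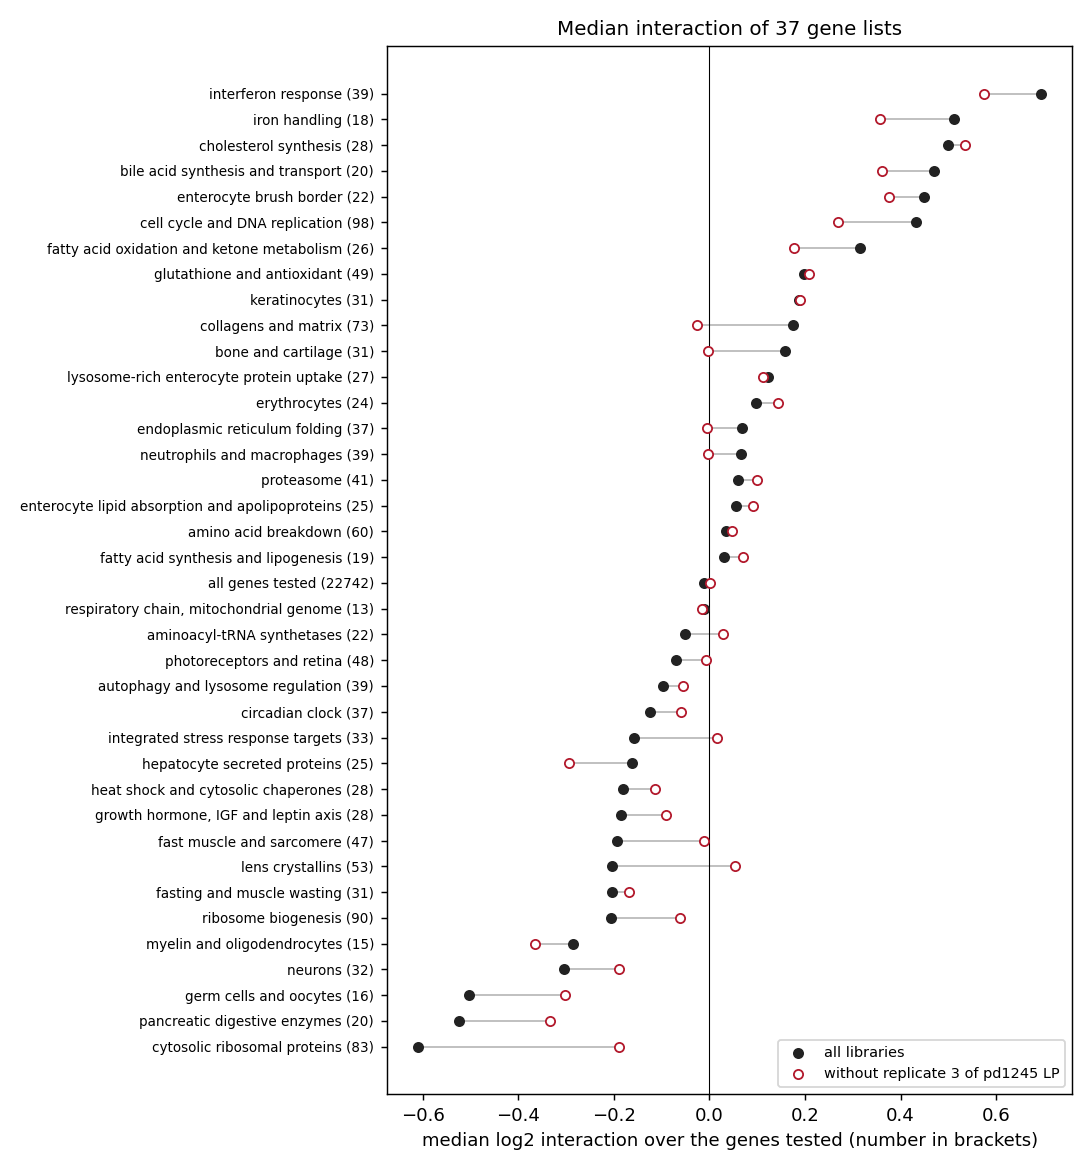
Median log2 interaction of the 37 gene lists and of all genes tested, with all libraries (filled) and without replicate 3 of pd1245 on LP (open); numbers in brackets are genes measured. The ribosomal protein list moves from -0.61 to -0.19 and the interferon list from 0.69 to 0.58.

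The remaining genes given by the naming rule fell into the same patterns. irg1l, related to the itaconate-forming enzyme of activated macrophages, was made by pd1116 on HP, at 1.52 to 2.32 CPM against 11.8 to 26.7 CPM in pd1245 (2.96, SE 0.55, adjusted p = 0.0264), and its pd1116 LP libraries spread from 2.82 to 17.2 CPM. urgcp was made by pd1116 on HP (1.86), vwa10.1 by pd1245 on HP (1.56), and UNC93A was mixed (2.04). cyp2x8, a cytochrome P450, was made by pd1116 on HP, at 11.9 to 14.6 CPM against 4.47 to 10.0 CPM in the other 9 libraries (-1.43, SE 0.32, adjusted p = 0.0491), and CEP41, a protein of centrosome and cilium, was mixed (-1.19). Of these 6, none kept the call in all 12 fits without 1 library, and the number of fits in which it held ran from 1 for cyp2x8 to 7 for urgcp. Set against EK on the same diet, pd1116 on LP contributed most to the cyp2x8 value and pd1245 on HP to the urgcp value. EK held 13.8 to 17.9 CPM of cyp2x8 on HP and 10.4 to 17.7 CPM on LP.

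In the adapted pd1245 line of experiment 2, measured with another library kit, diet changed 314 of 16671 genes tested (1.88%), 184 higher and 130 lower on LP. Of the 110 higher genes 98 were measured there, of which 41 had a diet response above 0 (41.8%, against 51.2% of all genes). By edgeR 0 of the 98 were called and 13 had an unadjusted p under 0.05, and DESeq2 called 1. Of the 30 lower genes 28 were measured, with 7 above 0 (against the same 51.2% of all genes) and 1 called lower; 11 had an unadjusted p under 0.05, and DESeq2 called 4. SLC6A19 was at 0.60 (adjusted p = 0.307), VIL1 at 0.18 (adjusted p = 0.574), GPT at 0.79 (adjusted p = 0.161) and chia.3 at -0.84 (adjusted p = 0.0837). In the adapted libraries SLC6A19 held only 0.848 to 1.97 CPM and GPT 1.33 to 2.97 CPM, levels at which a fold is imprecise. The pd1245 libraries of experiment 1 held 168 to 225 CPM and 13.3 to 31.1 CPM of them. EK showed the same gap, so it was not particular to the adapted line. EK held 147 to 227 CPM of SLC6A19 in experiment 1 and 0.923 to 2.53 CPM in experiment 2. For GPT the EK values were 13.4 to 23.9 CPM and 1.64 to 3.77 CPM. VIL1 and chia.3 stood at 126 to 215 CPM and 32.4 to 79.9 CPM in the adapted libraries. Neither line of experiment 1 was sequenced with these libraries, so whether the adapted line differs from them was not tested.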

How the data were processed

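Experiment 1 was deposited as raw counts of reads per gene, and the deposited table of experiment 2 holds expected counts, partly fractional; both were made by the authors and not normalized. Per the submitters' processing notes, experiment 1 was processed with FastQC 0.11.7, Trim Galore 0.6.5, STAR 2.7.3a and HTSeq 0.11.1, and experiment 2 with fastp 0.24.0, STAR 2.7.11 and featureCounts of Subread 2.1.1. The strand setting is not given in the sources used here, so reads of a gene and an antisense partner may not be told apart. In the 12 libraries, rows that name no gene held 12.3 to 14.3% (no feature) and 2.49 to 2.80% (ambiguous) relative to gene counts and were dropped. Expected counts of experiment 2 were rounded, 92 spike-in rows were dropped, and columns were matched to libraries by the library number in the title.

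All 18 libraries of experiment 1 were fitted together in R 4.3.3 with edgeR 4.0.16: TMM scaling, filterByExpr, 1 coefficient per group, quasi-likelihood F test, 2-sided, Benjamini-Hochberg adjustment over all 22742 genes tested, threshold 0.05. Experiment 2 was fitted alone. Fold changes use a prior count of 0.125, group means of log2 CPM a prior count of 2, and the SE of a log2 value is that value divided by the root of its F statistic. The biological coefficient of variation was 12.5%. Nothing in the labels says that libraries of a group are separate clutches or tanks, so p-values measure spread between libraries that may be technical. Same-numbered libraries correlated at -0.03 to 0.13 across the 6 pairs of groups, so numbers were not taken to pair them. The fit was tested on simulated data.

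Of 32520 gene IDs, 29201 had a symbol in the gene name table, and 6136 shared it with another gene; of such genes the ID is printed. The naming rule took pllp, up to 12 called genes per direction (mean of at least 2 CPM, unique symbol, calls kept in all 12 fits without 1 library first, then by size) and up to 4 called members per gene list. The comparison, the 37 lists and the rule were chosen with earlier results of these data known. The readings against EK, the microvillus group and the list medians without replicate 3 of pd1245 on LP were added after seeing the data. Alternatives were RLE and upper quartile scaling, no or a strict filter (50 counts), a replicate block, only the 4 groups, DESeq2 1.42.0, limma 3.58.1 voom with quality weights, and leaving out each library. Some genes are not reported here.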

Additional observations from a re-analysis of the deposited data

Results flagged for a closer look

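The diet response differed between the mutations in 140 genes, by the interaction test. Among named higher genes the log2 interaction was 2.03 for fut9d, 1.4 for aqp10b, 1.17 for and3, 1.17 for ogal, 1.12 for dpp4 and 1.00 for SLC7A7, and these 6 kept the call in all 12 fits without 1 library. It was 2.96 for irg1l, 2.74 for col8a1a, 2.58 for cmn, 2.04 for UNC93A, 1.86 for urgcp and 1.56 for vwa10.1. Among named lower genes it was -1.96 for chia.3 and -1.07 for zhx3a, which kept the call in all 12 fits. It was -2.35 for crygm2f, -2.20 for COCH, -2.08 for crygm7, -1.51 for crygm1, -1.43 for cyp2x8, -1.29 for c6ast3, -1.27 for crygm2c, -1.26 for DIO2, -1.19 for CEP41 and -1.13 for mb.

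Called list members gave 0.79 for SLC6A19 (ENSDARG00000091560), 0.93 for VIL1, 0.77 for NQO1, 0.89 for mgst3b, 0.81 for DDC, 0.90 for parp14rs1, 4.58 for FGF19 and 1.08 for SLC40A1. They gave -0.71 for FOXO1 (ENSDARG00000099555), -1.13 for GPT (ENSDARG00000055642), -1.32 for TNNI2 (ENSDARG00000013752) and -0.87 for plp1b.

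In the adapted pd1245 line on LP, 1 of 4 libraries lay apart for irg1l, at 14.8 CPM against 3.38 to 5.26 CPM, and another for crygm7, at 7.20 CPM against 2.38 to 2.89 CPM. About 1 group in 20 lies apart in this way by chance.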

How the results depend on the processing

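Of 754 alternative values for the 36 named called genes, 530 kept the call, 224 kept the sign but not the call, and 0 reversed. The interaction count of 140 was 138 with RLE, 154 with upper quartile scaling, 198 without a filter and 158 with the strict filter. It was 75 with the replicate block, 18 with only the 4 groups, 491 with DESeq2, 283 with voom quality weights, and 20 to 488 when 1 library was left out. With only the 4 groups and without replicate 3 of pd1245 on LP, an alternative chosen after seeing the data, it was 128.

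For diet in pd1116 (1545) the counts were 788 with only the 4 groups, 4450 with voom, 3187 with the 4 groups without that library, and 520 to 3506 with 1 library left out. For diet in pd1245 (4346) they were 2497, 2659, 2145, and 1278 to 5810. For the mutations on LP (4590) they were 3056 with the 4 groups, 2636 without that library too, and 2288 to 5899 with 1 left out. For the mutations on HP (2699) they were 4704 with voom, 4291 with the 4 groups without that library, and 1549 to 4557. For the adapted line (314) they were 550 without a filter, 745 with DESeq2, and 60 to 650. The cause was not tested. The replicate block left 27 of the 36 named calls; numbers were not shown to pair libraries.

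With 3 libraries per group, the smallest log2 interactions called were 0.58 and -0.57. Counts in lists rest on few calls: brush border members called ran from 0 to 7 over the alternatives and crystallins from 0 to 5. Genes made by pd1116 on HP numbered 25 to 36 over the alternatives, by pd1116 on LP 2 to 6, by pd1245 on HP 13 to 18 and by pd1245 on LP 21 to 29, while crossed genes ran from 5 to 29. Some alternatives called only 18 or 20 genes in all, so these ranges do not describe the genes that each alternative called.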
